A study of Mus musculus with 27 samples.

Results

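Messenger RNA of 10 genes of MHC class I antigen presentation was followed through mouse skull, meninges and brain before and after ultraviolet light was shone on the head. The genes were taken by symbol from the 37095 gene symbols of the count table, and all 10 were found. They are the class I heavy chains H2-K1 and H2-D1 with their light chain B2m, the peptide transporter subunits Tap1 and Tap2 with the loading factor Tapbp, the immunoproteasome subunits Psmb8, Psmb9 and Psmb10, and the transcriptional activator Nlrc5. In each tissue 3 libraries came from mice 0.5 h after UVB (311 nm, 2 mW) on the interparietal bone, 3 from mice 24 h after it, and 3 from mice without it, called control. Skull means the skullcap after a cold wash to clear blood, and meninges means the tissue scraped from that skullcap. The series asks what cranial light does to border immunity of the brain and to stroke outcome. Strain, sex, age, sham handling and clock time are not labelled for any group. Nor do the labels say whether replicates were separate animals, so p-values measure the spread between these samples, which may be technical. No stroke library was analysed here.

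Class I molecules show peptides from inside the cell to CD8 T cells and to natural killer cell receptors, and nearly all nucleated cells carry them. The proteasome cuts proteins into peptides, the TAP transporter moves these into the endoplasmic reticulum, and tapasin (the product of Tapbp) holds the empty heavy chain and B2m beside TAP until a peptide binds. Interferons raise most of these genes: the subunits from Psmb8, Psmb9 and Psmb10 then replace constitutive proteasome subunits, and NLRC5 acts with RFX, CREB-family and NF-Y factors at the SXY module of class I promoters. Healthy neurons are known for low class I levels, while blood, vascular and border tissues carry more.

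The counts of a library summed to 14.2 M at the lowest and to 27.3 M in brain control 1, the deepest library, with 18.2 M in the one after it. Levels below are CPM, counts per M of the library total after TMM scaling, and levels of different genes are set side by side only per kilobase of exon. The length counts every annotated exon base of a gene once. It is at least that of any single transcript, so orders and ratios of genes depend on this choice. Of the tissue markers, the 7 for neurons summed to 15–21.6 CPM in control skull, 246–511 CPM in control meninges and 5482–5904 CPM in control brain. The osteoblast markers summed to 3180–5322 CPM in control skull, 1575–2204 CPM in control meninges and 16.7–19.7 CPM in control brain, and the source of these counts in meninges was not tested. The control meninges libraries were uneven in other tissues' markers, with sums of 405–6300 CPM for choroid plexus and 14.8–3777 CPM for skeletal muscle. Pineal gland markers were more even, at 1183–1433 CPM. Some counts can be split between genes. Of the 50-base stretches of their transcripts, 9.63% for H2-K1 and 12.8% for H2-D1 also occur in another gene (0.957% and 3.59% of 100-base stretches), so the split of reads among class I heavy chains is uncertain. Neither read length nor strandedness of counting is stated in the sources used here, so reads from the 212 exon bases that Tap1 and Psmb9 share on opposite strands could count for either. The same holds for antisense or neighbouring transcripts that share exon bases with Tap2 (533 with Gm15821, 165 with Gm20496), Tapbp (904 with Gm19412, 149 with Zbtb22), Psmb8 (498 with Gm20496) and Nlrc5 (78 with 9330175E14Rik).

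In untreated tissue all 10 genes were higher in skull than in brain, and all 10 were higher in meninges than in brain (edgeR quasi-likelihood test on 27 libraries, adjusted p under 0.05). Such differences between tissues were common: 37.3% of the 21500 tested genes were higher in skull and 36.8% were higher in meninges than in brain. The skull over brain log2 fold changes were lowest for Psmb10 (1.14) and highest for H2-D1, with a median of 3.55, beside a median of -0.02 over all tested genes. Those of meninges over brain ran from 1.13 (Psmb10) to 3.37 (B2m) with a median of 2.90, beside 0.06 over all. These sizes and their order rest on brain control 1, in which H2-K1, H2-D1, Tap1, Psmb8 and Psmb9 stood far above the other brain libraries. Without it all 10 still passed in both comparisons, with medians of 4.51 (skull over brain) and 3.81 (meninges over brain), and Psmb8 was highest, at 5.36 and 4.60, followed by Psmb9 (5.14 and 4.58) and H2-K1 (5.13 and 4.57). Between skull and meninges 0 of the 10 passed the test at a background of 21.6% of genes higher in skull and 26.5% lower (0 at unadjusted p under 0.05, 0 by DESeq2, median 0.56, lowest adjusted p = 0.153 for Tap1). In bulk tissue a smaller number of cells of a type and less RNA per cell cannot be told apart.

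**Figure D1:**
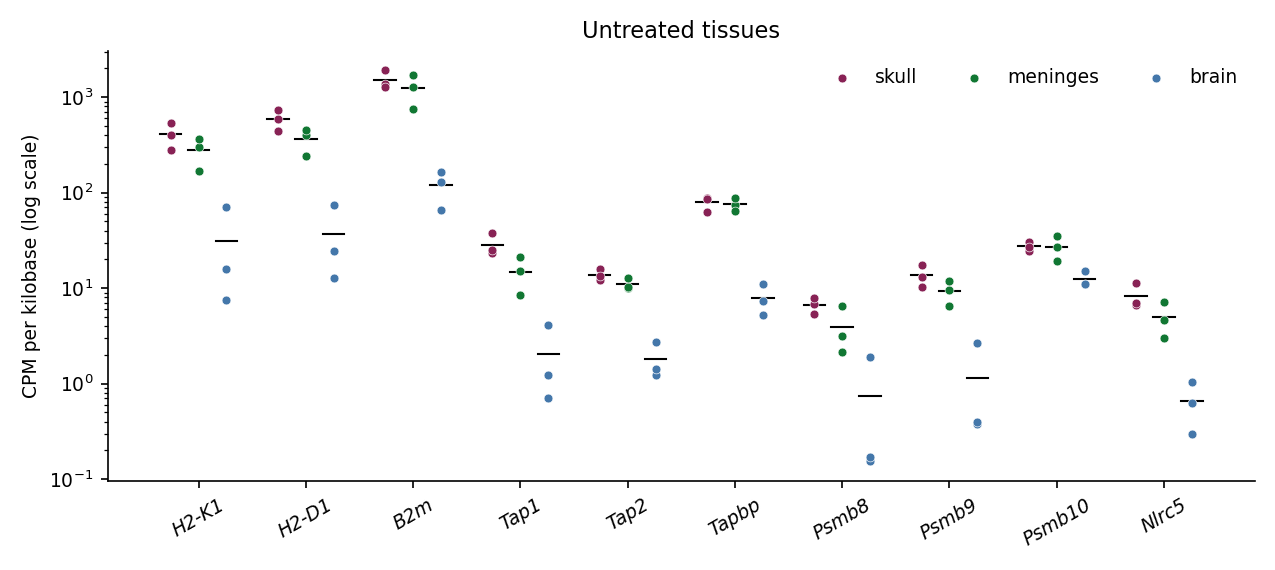
Levels of the 10 genes in the 9 untreated libraries, in CPM per kilobase of exon on a log axis, by tissue; points are libraries and lines are means of 3. B2m is highest in each tissue, and all brain points lie below the skull and meninges points of the same gene.

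Per kilobase B2m led in every untreated tissue, at 1524 ± 339 CPM per kilobase in skull, 1243 ± 467 in meninges and 120 ± 50.3 in brain (SD, n = 3 each). H2-D1 came next, at 592 ± 146 CPM per kilobase in skull, 366 ± 111 in meninges and 36.8 ± 32.2 in brain. H2-K1 followed, at 409 ± 128 CPM per kilobase in skull, 277 ± 99.5 in meninges and 31.4 ± 34.4 in brain, and its libraries overlapped those of H2-D1 in each tissue. The processing and loading genes stood far lower, with Tapbp at 79 ± 13.7 CPM per kilobase in skull, Tap1 at 28.6 ± 7.95, Psmb10 at 27.3 ± 3.18, Tap2 at 13.7 ± 1.93 and Psmb9 at 13.6 ± 3.7. By these lengths Nlrc5, at 8.27 ± 2.57, and Psmb8, at 6.7 ± 1.27, were the lowest in skull. Psmb10 differed least between tissues, with 27.1 ± 7.89 CPM per kilobase in meninges and 12.4 ± 2.27 in brain.

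The immunoproteasome subunits were set beside the constitutive subunits they replace, as ratios of levels per kilobase. Psmb8 over Psmb5 was 0.272 ± 0.0527 in control skull, 0.191 ± 0.0837 in control meninges and 0.0294 ± 0.0384 in control brain (SD, n = 3 each). Psmb9 over Psmb6 was 0.32 ± 0.0897 in control skull, 0.232 ± 0.0597 in control meninges and 0.0399 ± 0.0446 in control brain. Psmb10 over Psmb7 was above 1 in the border tissues, at 2.12 ± 0.386 in skull and 2.08 ± 0.526 in meninges, and 0.808 ± 0.123 in brain. By these lengths Psmb8 and Psmb9 stood below their partners in every tissue, and Psmb10 did so in brain alone. All annotated exons were counted, 3.38 kilobases for Psmb8 and 3.66 for Psmb9. A shorter transcript would raise these ratios, so which message was the minor partner is not settled. These ratios were not tested.

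H2-K1 (chr17:33996017-34000347, minus strand, GRCm38) and H2-D1 (chr17:35262730-35267499, plus strand) are the classical class I heavy chains read by the table, and B2m (chr2:122147686-122153083, plus strand) lies outside the MHC. Their promoters are shown because these genes moved together and their start-proximal control elements are well known. RefSeq (GRCm38.p6) gave promoters for 8 of the 10 genes, not for Tap2 and Nlrc5. Capitals mark, in order along the strand of the gene, an NF-kB motif (GGGGATTCC), an interferon-response motif (GAANNGAAA, or AAANNGAAA in B2m, on either strand) and the X2 (TGACG) and Y (ATTGG) boxes of the SXY module. The H2-K1 stretch is chr17:34000348-34000473 on the minus strand and ends at the base before the start. The H2-D1 stretch, chr17:35262993-35263022 on the plus strand, holds the X2 and Y boxes alone, since GENCODE M21 starts the gene further upstream than RefSeq does. The B2m stretch is chr2:122147534-122147653 on the plus strand.
H2-K1: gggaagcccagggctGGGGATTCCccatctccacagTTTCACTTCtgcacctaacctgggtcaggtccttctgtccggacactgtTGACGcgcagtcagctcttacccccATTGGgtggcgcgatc
H2-D1: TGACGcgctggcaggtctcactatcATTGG
B2m: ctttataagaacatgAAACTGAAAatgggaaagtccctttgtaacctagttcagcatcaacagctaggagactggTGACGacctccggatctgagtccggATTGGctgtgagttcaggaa

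Each motif was sought on both strands of the 250 bases before the start in 32851 RefSeq promoters. The NF-kB motif was in H2-K1 and H2-D1 and in 0.213% of all promoters. GAANNGAAA was in H2-K1 and H2-D1 and in 6.31% of all, and AAANNGAAA was in B2m and in 9.37% of all; these forms can overlap each other. A TGACG followed by 20 bases and ATTGG, the spacing shown above, was found in H2-K1, H2-D1 and B2m and in 30 promoters in all, or 0.0913%. The nonclassical chain gene H2-M3 was another of these. Singly the boxes are common, TGACG in 17.8% of promoters and ATTGG in 33.8%. Over the 30 bases of that stretch H2-K1 and H2-D1 were identical at 23 bases, H2-K1 and B2m at 13, and H2-D1 and B2m at 12. The boxes that chose the stretch fix 10 of these, so that of the 20 bases between them 13, 3 and 2 were identical, and B2m shared little with the heavy chains beyond the boxes. The starts of Tap1 and Psmb9 lie 226 bases apart on opposite strands, so that 225 of the 250 bases searched belong to both, and these 2 genes hold TGACG and ATTGG without that spacing. A match is a description of letters, and no match says only that these letters are not in that window.

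After UVB the genes were lower in skull, at 0.5 h and at 24 h alike. At 0.5 h, 6 of the 10 fell and 0 rose, where 2.94% of the 17426 tested genes fell and 1.96% rose. At 24 h the same 6 fell and 0 rose, where 10.4% of tested genes fell and 10.6% rose. They were H2-K1, H2-D1, B2m, Tap2, Tapbp and Psmb8. The log2 fold change was negative for all 10 at each time, with medians of -0.98 at 0.5 h and -0.75 at 24 h, beside 0.00 over all tested genes at both. The treated and control libraries did not overlap for 9 of the 10 at 0.5 h, all but Nlrc5 and all lower, where 13.6% of tested genes were lower without overlap. At 24 h this held for 8 of the 10, all but Psmb10 and Nlrc5, against 18.4% of tested genes. Both comparisons use the same 3 control libraries. Between 24 h and 0.5 h 0 of the 10 passed in skull (0 at unadjusted p under 0.05, 0 by DESeq2, lowest adjusted p = 0.291, median 0.13), where 8.39% of tested genes were higher at 24 h and 7.74% lower.

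At 24 h the 3 class I chains had the lowest log2 fold changes of the 10. H2-K1 had 1193, 1581 and 828 CPM in the control skull libraries, 453, 444 and 637 CPM at 0.5 h and 426, 433 and 546 CPM at 24 h. All 6 treated libraries lay below the lowest control. Its log2 fold change was -1.24 ± 0.23 at 0.5 h (SE, adjusted p = 0.0213) and -1.35 ± 0.23 at 24 h (adjusted p = 0.00415), so that 24 h skull held 39% of the control mean. H2-D1 had 1525, 1903 and 1151 CPM in control skull, 711, 683 and 937 CPM at 0.5 h and 670, 666 and 762 CPM at 24 h. Its log2 fold change was -0.98 ± 0.17 at 0.5 h (adjusted p = 0.0118) and -1.12 ± 0.17 at 24 h (adjusted p = 0.00122). B2m, the invariant light chain that every class I molecule needs at the cell surface, had 1190, 1642 and 1099 CPM in control skull, 508, 522 and 703 CPM at 0.5 h and 503, 477 and 685 CPM at 24 h. The groups were again separate, with log2 fold changes of -1.19 ± 0.19 at 0.5 h (adjusted p = 0.0103) and -1.23 ± 0.19 at 24 h (adjusted p = 0.00178). The ratio of H2-K1 to B2m per kilobase stayed in a narrow range, at 0.265 ± 0.0391 in control skull, 0.258 ± 0.00838 at 0.5 h and 0.249 ± 0.0164 at 24 h (SD, n = 3 each). That of H2-K1 to H2-D1 was 0.682 ± 0.0493 in control skull, 0.576 ± 0.0191 at 0.5 h and 0.586 ± 0.0376 at 24 h, with every treated library below every control. These ratios were not tested.

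**Figure D2:**
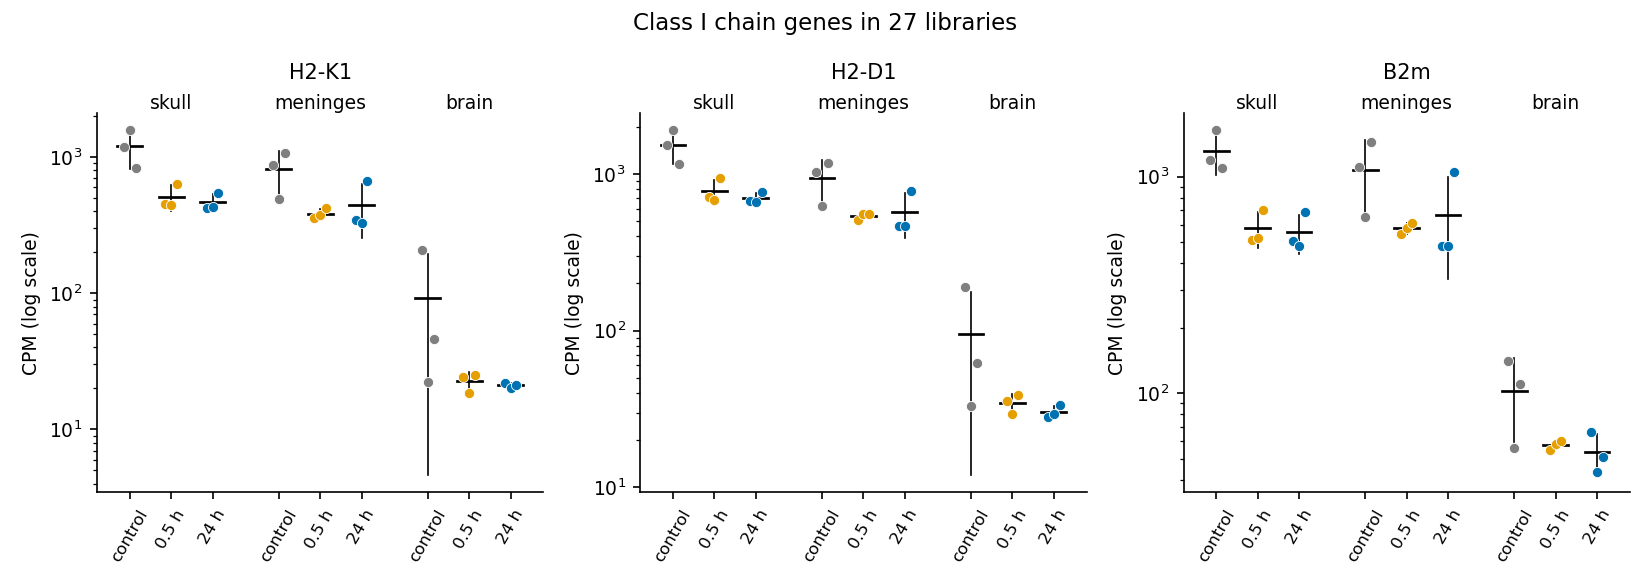
H2-K1, H2-D1 and B2m in 27 libraries, in CPM on a log axis, by tissue and group; points are libraries, horizontal lines are means and vertical lines are ± 1 SD (n = 3). In skull every treated point lies below every control point. Among the brain points, control library 1 stands far above the rest for H2-K1 and H2-D1, and for B2m control libraries 1 and 3 lie above the rest.

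The called changes of transport and loading genes were smaller. Tap2 (chr17:34203527-34216321, plus strand) had 45.7, 60 and 50.2 CPM in control skull, 29.6, 31.9 and 42.1 CPM at 0.5 h and 35.1, 31.3 and 40.2 CPM at 24 h. Its log2 fold change was -0.60 ± 0.14 at 0.5 h (SE, adjusted p = 0.0359) and -0.54 ± 0.14 at 24 h (adjusted p = 0.0203). Tapbp (chr17:33915899-33929292, plus strand) had 230, 322 and 309 CPM in control skull, 142, 153 and 199 CPM at 0.5 h and 184, 152 and 211 CPM at 24 h. The tapasin message thus stood at 57.5% of its control mean at 0.5 h (log2 fold change -0.81 ± 0.17, adjusted p = 0.0259) and at 63.6% at 24 h (-0.64 ± 0.17, adjusted p = 0.0212). Tap1 (chr17:34187553-34197225, plus strand), the partner of Tap2 in the transporter, did not pass. It had 126, 206 and 137 CPM in control skull, 46, 49.4 and 116 CPM at 0.5 h and 98.8, 57.7 and 115 CPM at 24 h. The groups did not overlap, but the third library of each treated group lay close to the controls (log2 fold change -1.17 ± 0.44, adjusted p = 0.19 at 0.5 h, and -0.78 ± 0.44, adjusted p = 0.267 at 24 h).

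Of the immunoproteasome subunits, Psmb8 (chr17:34197721-34201454, plus strand), which carries the chymotrypsin-like activity, was the one that fell by edgeR. It had 23.1, 26.7 and 18.1 CPM in control skull, 9.16, 8.49 and 15 CPM at 0.5 h and 12.9, 12.2 and 16.5 CPM at 24 h. The log2 fold change was -1.06 ± 0.22 at 0.5 h (SE, adjusted p = 0.0202) and -0.70 ± 0.22 at 24 h (adjusted p = 0.0379). Psmb9 (chr17:34181987-34187764, minus strand) had 47.9, 64.2 and 37.4 CPM in control skull, 20.1, 20.3 and 36.3 CPM at 0.5 h and 26.5, 21 and 33.2 CPM at 24 h, without overlap. It did not pass (log2 fold change -0.97 ± 0.28, adjusted p = 0.0926 at 0.5 h, and -0.88 ± 0.28, adjusted p = 0.0604 at 24 h). Psmb10 (chr8:105935735-105938444, minus strand) had a log2 fold change of -0.64 ± 0.24 at 0.5 h (adjusted p = 0.15) and -0.29 ± 0.23 at 24 h (adjusted p = 0.423). The calls for these subunits depended on the tool and on the fit. With only the control and 24 h skull groups fitted, edgeR called Psmb9 at 24 h. DESeq2 called Psmb9 at 0.5 h (adjusted p = 0.00427, range over the other settings with all libraries 0.00427–0.226) and at 24 h (0.0041, range 0.0041–0.176). It called Psmb10 at 0.5 h too (0.048, range 0.048–0.354). DESeq2 thus called 8 of the 10 at 0.5 h and 7 at 24 h, beside 1536 and 4173 of the 17426 tested genes. Per kilobase, Psmb8 over Psmb5 was 0.253, 0.331 and 0.231 in the control skull libraries, 0.13, 0.0928 and 0.201 at 0.5 h and 0.128, 0.151 and 0.172 at 24 h, so the ratio was lower in all 6 treated libraries than in any control. Psmb9 over Psmb6 was 0.32 ± 0.0897 in control skull, 0.191 ± 0.0671 at 0.5 h and 0.165 ± 0.0331 at 24 h (SD, n = 3 each). These ratios were not tested.

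Nlrc5 (chr8:94434356-94527272, plus strand), whose product drives class I transcription, had 56, 95.4 and 59.4 CPM in control skull, 25.9, 28.2 and 61.1 CPM at 0.5 h and 40.8, 28.7 and 57.8 CPM at 24 h. The third library of each treated group reached the control range. Its log2 fold change of -0.88 ± 0.42 at 0.5 h (SE, adjusted p = 0.28) and -0.72 ± 0.42 at 24 h (adjusted p = 0.283) did not pass the test.

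**Figure D3:**
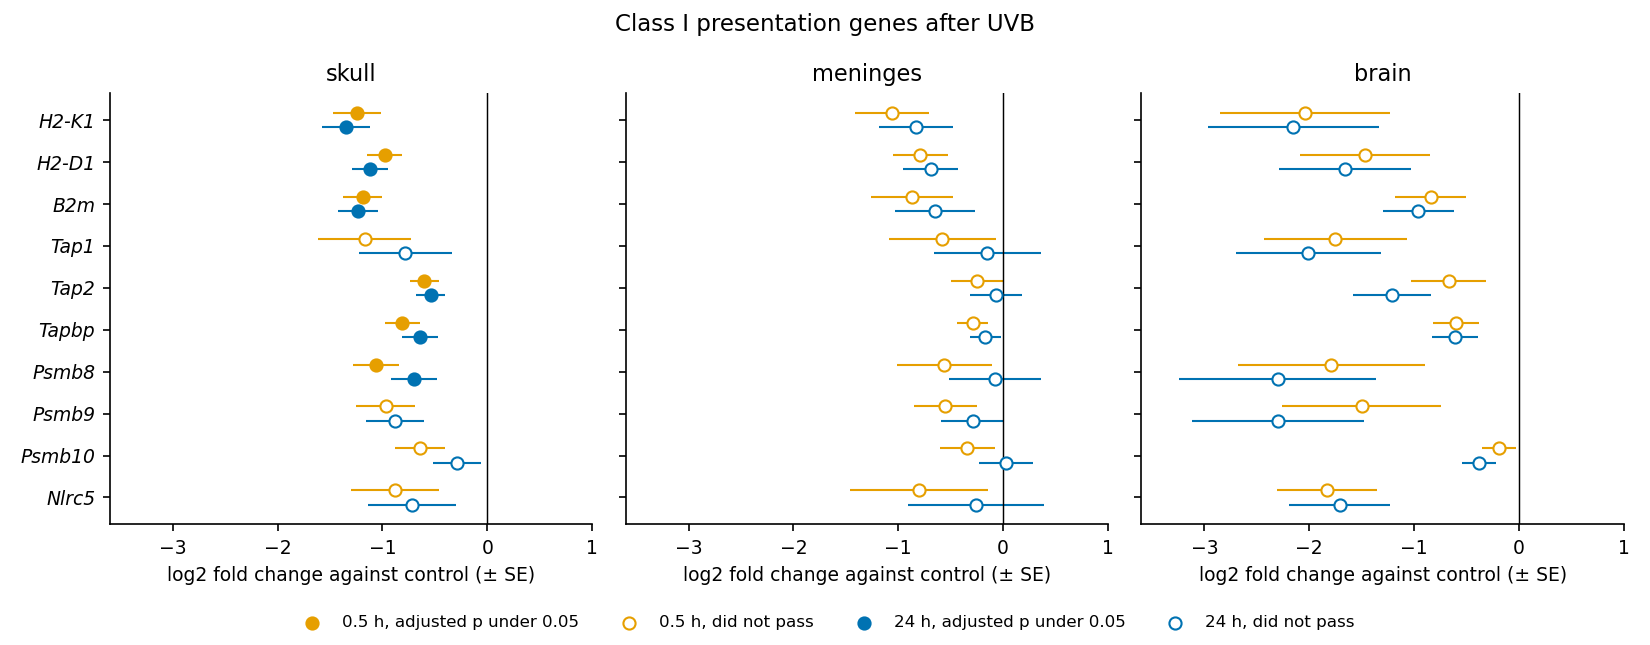
Log2 fold change against control (x axis, ± SE) of each gene, in skull, meninges and brain, at 0.5 h and 24 h; filled points have an adjusted p under 0.05. The filled points are the 6 genes that fell in skull at both times, and in meninges and brain no point is filled although nearly all lie left of 0.

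How far these calls rest on single libraries differed between the times. At 24 h H2-K1, H2-D1 and B2m passed whichever library of the comparison was left out, at adjusted p up to 0.0208, 0.00892 and 0.0115. The count of genes that fell at 24 h was 3 without skull control 2, without skull 24 h 1 or without skull 24 h 2. At 0.5 h it was 0 without skull 0.5 h 1 or without skull 0.5 h 2, while the log2 fold changes of H2-K1 stayed between -1.44 and -0.99 over all libraries left out. In those fits 183 and 112 of all tested genes passed, beside 854 with all libraries.

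In meninges 0 of the 10 passed at 0.5 h by edgeR, at a background of 0.507% of 18542 tested genes lower and 0.367% higher, and 0 passed in DESeq2. An unadjusted p under 0.05 was found for 2 of the 10 and for 2517 of the 18542 tested genes. All 10 log2 fold changes were negative, with a median of -0.57 beside 0.01 over all tested genes. H2-D1 had the smallest p. It had 505, 553 and 554 CPM at 0.5 h, against 1032, 625 and 1175 CPM in control meninges, without overlap (log2 fold change -0.79 ± 0.26, SE, adjusted p = 0.237). H2-K1 had 357, 373 and 422 CPM at 0.5 h, against 874, 494 and 1069 CPM in control meninges (log2 fold change -1.06 ± 0.35, adjusted p = 0.252). With Tap2 and B2m they made 4 of 10 genes whose libraries were lower without overlap, where 11% of tested genes were.

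In meninges at 24 h 0 of the 10 passed as well, at a background of 4.45% of tested genes lower and 3.97% higher, and 0 passed in DESeq2. An unadjusted p under 0.05 was found for 2 of the 10 and for 4444 of the 18542 tested genes, so 2 was no more than the share over all genes. The median log2 fold change was -0.22, beside 0.02 over all tested genes. The third library set the spread: H2-D1 had 466, 467 and 783 CPM at 24 h, against 1032, 625 and 1175 CPM in control meninges (log2 fold change -0.69 ± 0.26, SE, adjusted p = 0.152). B2m showed the same order, at 477, 478 and 1050 CPM at 24 h, against 1105, 650 and 1451 CPM in control meninges. Without the third library of that group, 2 of the 10 passed, H2-K1 (log2 fold change -1.25) and H2-D1. Between 24 h and 0.5 h all 10 were positive in meninges and 0 passed (0 at unadjusted p under 0.05, 0 by DESeq2, lowest adjusted p = 0.541, median 0.24), where 1.07% of tested genes were higher and 1.27% lower.

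In brain 0 of the 10 passed at either time by edgeR. At 0.5 h the median log2 fold change was -1.49, with a lowest adjusted p of 0.714 (Nlrc5). At adjusted p under 0.05, 0.0055% of 18172 tested genes were lower and 0% higher. An unadjusted p under 0.05 was found for 5 of the 10 and for 955 of the 18172 tested genes. At 24 h the median was -1.69, with a lowest adjusted p of 0.0808, where 1.42% of tested genes were lower and 1.21% higher at adjusted p under 0.05. All 10 had an unadjusted p under 0.05, as did 3318 of the 18172 tested genes. DESeq2 called 0 of the 10 at 0.5 h and 3 at 24 h, beside 15 and 877 of the 18172 tested genes. Nlrc5, with the smallest p at each time, had 1.37, 1.19 and 2.17 CPM at 0.5 h, against 8.71, 2.54 and 5.38 CPM in control brain (log2 fold change -1.83 ± 0.48, SE). At 24 h it had 2.13, 0.676 and 2.35 CPM, also below every control library (log2 fold change -1.71 ± 0.48). In all, 5 of the 10 were lower without overlap at 24 h, where 10.6% of tested genes were, and 1 of the 10 at 0.5 h, where 5.5% were. Between 24 h and 0.5 h 0 of the 10 passed in brain (0 at unadjusted p under 0.05, 0 by DESeq2, lowest adjusted p = 0.61, median -0.19), where 0.088% of tested genes were higher and 0.132% lower.

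Brain control 1 stood apart for H2-K1, H2-D1, Tap1, Psmb8 and Psmb9, at 3.03 times or more the next brain library. H2-K1 stood at 208 CPM there, 4.5 times the next of the 9 brain libraries (46.3 CPM), Psmb8 at 6.42 CPM, 7.03 times the next, and Psmb9 at 9.66 CPM, 5.09 times the next. Psmb10, at 25.6 CPM, was 1.12 times the next, B2m 1.27 times, Tapbp 1.5 times, Nlrc5 1.62 times and Tap2 1.82 times. In the same library the class II invariant chain Cd74 was at 24.9 CPM, against 1.45–3.73 CPM in the other 8 brain libraries, the interferon-induced factor Irf1 was at 16.7 CPM, against 3.45–5.74 CPM, and the skin keratin Krt14 was at 4.85 CPM, where the others list 0. The pan-leukocyte gene Ptprc was not raised, at 5.58 CPM against 4.88–6.42 CPM, and the part of these values in the result was not tested. Without brain control 1 the median log2 fold changes were -0.37 at 0.5 h and -0.67 at 24 h, with 0 of the 10 passing. The 24 h log2 fold changes of H2-K1, Psmb8 and Nlrc5 were then -0.70, -0.06 and -1.20, and those of Psmb8 and Psmb9 at 0.5 h turned to 0.46 and 0.09. The count of genes passing at 24 h was 3 without brain control 2 and 1 without brain 24 h 3, and at 0.5 h it was 1 without brain control 2. Of all tested genes 228, 389 and 9 passed in those fits.

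Whether UVB acted differently on these genes in the 3 tissues was tested as a difference of effects in a fit of all 27 libraries. By edgeR and by DESeq2 0 of the 10 passed in each of the 6 differences. At 24 h the effect in meninges minus that in brain had the lowest adjusted p (0.232, for Tap2) and a median of 1.20. The background at adjusted p under 0.05 was 1.32% of 21500 tested genes. An unadjusted p under 0.05 was found for 4 of the 10 (Tap1, Tap2, Psmb8 and Psmb9) and for 2988 of the 21500. The 24 h effect in skull minus meninges was negative for all 10 (median -0.48, lowest adjusted p = 0.592, background 0.633%), and that of skull minus brain had a median of 0.73 (lowest adjusted p = 0.336, background 6.71%). At 0.5 h the medians were -0.31 for skull minus meninges (background 0.0093%), 0.55 for skull minus brain (0.209%) and 0.80 for meninges minus brain (0.0093%), with lowest adjusted p of 0.928, 0.731 and 0.946. The size of the differences from brain, and the sign of their medians except for meninges minus brain at 24 h, rested on brain control 1. Without it the 24 h medians were -0.28 for skull minus brain and 0.14 for meninges minus brain, and those at 0.5 h were -0.57 and -0.34. For skull minus brain at 24 h H2-K1 then stood at -0.65 in place of 0.78, and Psmb8 at -0.65 in place of 1.65, with 0 of the 10 passing in each difference. In the 5 differences other than meninges minus brain at 24 h, 0 of the 10 had an unadjusted p under 0.05. So the calls in skull, with none in meninges or brain, do not show that the tissues differ.

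Other class I chains fell in skull too. As a background for such lists, of all tested genes in skull 1.96% rose and 2.94% fell at 0.5 h, and 10.6% rose and 10.4% fell at 24 h. Of 13 tested nonclassical and class I-like chains 4 fell at 0.5 h (median log2 fold change -0.83) and 7 fell at 24 h (median -0.69), and 0 rose at either time. H2-Q4 had 50.1, 55.1 and 93 CPM at 0.5 h, against 204, 282 and 142 CPM in control skull (log2 fold change -1.67 ± 0.31, SE, adjusted p = 0.0293), and 51.9, 50.4 and 62.7 CPM at 24 h (-1.92 ± 0.31, adjusted p = 0.00567). H2-T10 had log2 fold changes of -1.37 ± 0.30 at 0.5 h and -1.49 ± 0.30 at 24 h (adjusted p = 0.0275 and 0.006). H2-M3, which presents formylated peptides, had -0.83 ± 0.18 at 0.5 h (adjusted p = 0.0235), and H2-Q6 had -2.77 ± 0.47 at 24 h (adjusted p = 0.00178). Reads of the H2-Q and H2-T genes are hard to assign, since these genes are close copies.

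Of 12 tested partners of peptide loading (chaperones, peptide trimmers and translocon genes) 0 fell and 0 rose at 0.5 h in skull, with a lowest adjusted p of 0.0979 and a median of -0.22. At 24 h 4 rose and 0 fell (median 0.23), among them P4hb, a disulfide isomerase, with a log2 fold change of 0.52 ± 0.11 (SE, adjusted p = 0.00684), Sec61a1, of the translocon (0.32 ± 0.10, adjusted p = 0.0332), and Ganab, a glucosidase (0.24 ± 0.07, adjusted p = 0.039). Of 19 constitutive proteasome and activator genes 2 fell at 0.5 h, Pomp (-0.38 ± 0.09) and Psmb4 (-0.34 ± 0.09), and 1 rose at 24 h, Psma5 (0.26 ± 0.08). Psmb5, the constitutive counterpart of Psmb8, had 22.2 ± 1.81 CPM in control skull, 21 ± 2.93 CPM at 0.5 h and 24.6 ± 2.74 CPM at 24 h (SD, n = 3 each).

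Of 24 regulators upstream of class I, 2 rose and 2 fell at 0.5 h in skull, and 2 rose and 5 fell at 24 h, where 2 of 24 is no more than the share over all genes. Irf1, an interferon-induced activator of class I and immunoproteasome promoters, had 32.6, 35.5 and 54.4 CPM at 0.5 h, against 71.5, 91.6 and 80.3 CPM in control skull (adjusted p = 0.0139). At 24 h it had 34.5, 30.7 and 38.8 CPM (log2 fold change -1.22 ± 0.18, SE, adjusted p = 0.00121). Rela, an NF-kB subunit, fell at 0.5 h (-0.50 ± 0.09, adjusted p = 0.0137), and Ifngr1, a chain of the interferon-gamma receptor, fell at 24 h (-0.50 ± 0.08, adjusted p = 0.00136). Nfya, a subunit of NF-Y, which binds the Y box, rose at 0.5 h (0.44 ± 0.09, adjusted p = 0.0173) and at 24 h (0.38 ± 0.09, adjusted p = 0.0106). The interferon genes themselves were hardly counted: Ifng and Ifnb1 together stayed at or below 0.317 CPM in every skull library and passed no filter.

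Of 40 interferon-stimulated genes outside class I presentation 1 fell and 0 rose at 0.5 h in skull, while their median log2 fold change was -1.21. At 24 h the median was -0.36, and again 1 of 40 fell and 0 rose, fewer than the share of all genes. The gene was Cxcl9, a chemokine induced by interferon-gamma, at both times. It had 5.1, 4.31 and 5.19 CPM at 0.5 h, against 13.5, 33.1 and 19.2 CPM in control skull (log2 fold change -2.18 ± 0.29, SE, adjusted p = 0.00316). At 24 h it had 2.82, 2.27 and 2.93 CPM (-3.03 ± 0.31, adjusted p = 9.27e-05). The summed level of the 40 genes was 2111–4233 CPM in control skull, 857–2524 CPM at 0.5 h and 1230–3870 CPM at 24 h, so the groups overlapped. The class I chains were separate, with sums of 3077–5126 CPM in control skull, 1650–2276 CPM at 0.5 h and 1575–1993 CPM at 24 h. Of 11 class II presentation genes 0 fell at 0.5 h and 5 fell at 24 h, with Cd74 at 141, 143 and 141 CPM at 24 h, against 366, 335 and 243 CPM in control skull (log2 fold change -1.15 ± 0.16, adjusted p = 0.00107).

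**Figure D4:**
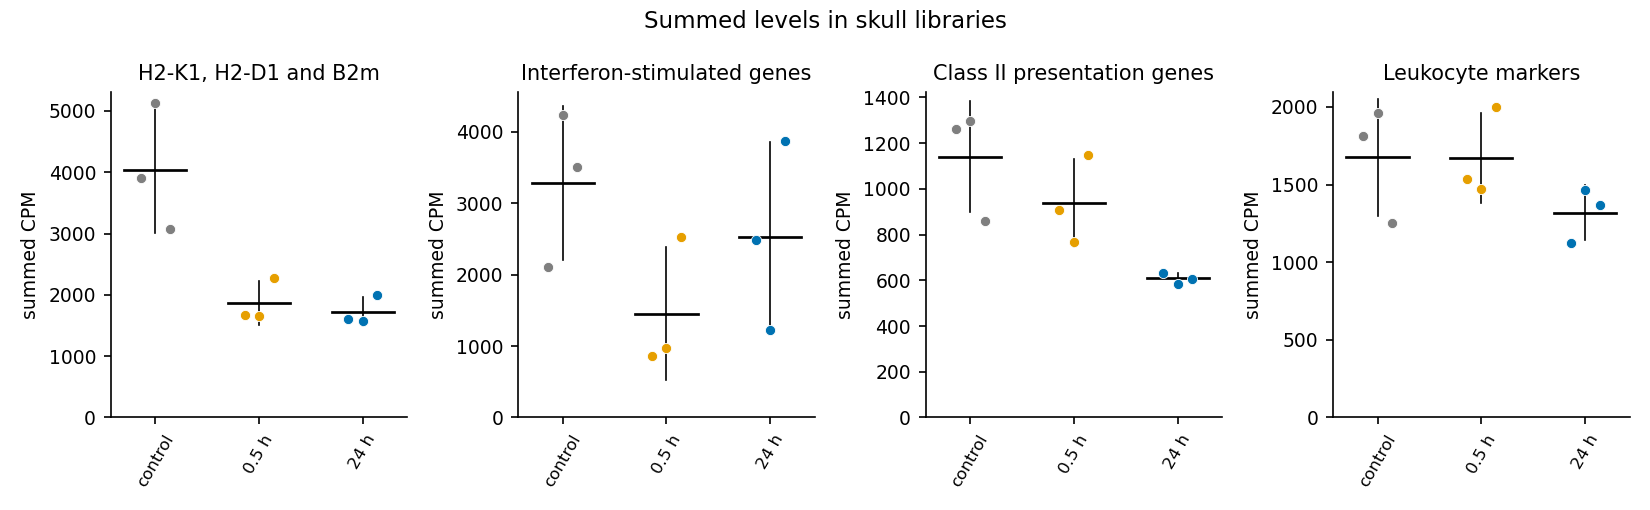
Summed CPM per skull library of the 3 class I chain genes, 40 interferon-stimulated genes, 11 class II genes and 6 leukocyte markers; points are libraries, horizontal lines are means and vertical lines are ± 1 SD (n = 3). The class I sums of the treated libraries lie below all controls at both times, and the class II sums do so at 24 h alone. The interferon-stimulated and leukocyte sums overlap the controls at both times.

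Markers of the cells that carry much class I were set beside these values. At 0.5 h 0 of 6 leukocyte markers, 0 of 12 T and NK cell markers and 0 of 8 neutrophil markers fell in skull, and 1 of 6 B cell markers rose (Ms4a1). The leukocyte markers summed to 1470–2002 CPM at 0.5 h, against 1250–1960 CPM in control skull. The B cell markers summed to 615–681 CPM at 0.5 h, wholly above the 454–561 CPM of control skull. At 24 h the leukocyte markers summed to 1122–1466 CPM and 1 of 6 fell. Of the T and NK cell markers 5 of 12 fell (32.9–49.6 CPM summed, against 50–109 CPM in control skull). Of the B cell markers 4 of 6 fell (247–400 CPM, against 454–561 CPM). At that time 3 of 7 erythroid markers (3265–5143 CPM, against 5895–6562 CPM) and 2 of 8 meningeal fibroblast markers (3665–4268 CPM, against 4134–5080 CPM) fell too, and 3 of 7 osteoblast markers rose while 2 fell. The 7 genes of the microglia list summed to 559–640 CPM at 24 h, against 394–445 CPM in control skull. Of the 6 tested, Tmem119, which osteoblasts are also known to express, rose (465 against 281 CPM, mean of 3) and Cx3cr1 fell. No marker of these lists was at 0 throughout a skull group. The part of these changes in the class I result was not tested.

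In meninges and brain some of the same lists moved, at the backgrounds given above for each tissue. In meninges at 24 h 5 of 11 class II genes fell and 0 rose, among them Cd74 with 224, 214 and 204 CPM, against 647, 450 and 547 CPM in control meninges, while of 15 other class I chains 0 passed (lowest adjusted p = 0.142). Cxcl9 was again the 1 of 40 interferon-stimulated genes that fell (log2 fold change -2.01 ± 0.27, SE, adjusted p = 0.00195), and Nfya rose there at 0.5 h (0.44 ± 0.09, adjusted p = 0.0482) and at 24 h (0.48 ± 0.09, adjusted p = 0.00877). Irf1 had 43.4 ± 7.03 CPM in control libraries, 45.5 ± 8.35 CPM at 0.5 h and 45.4 ± 10.7 CPM at 24 h in meninges (SD, n = 3 each). In brain at 24 h the nonclassical chain gene H2-T23, whose product is a ligand of NK cell receptors, fell as 1 of 12 tested chains, with 13.8, 10 and 13.3 CPM, against 29.7, 16.7 and 25.5 CPM in control brain (log2 fold change -0.97 ± 0.19, adjusted p = 0.0171).

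Cell markers in these tissues moved at 24 h as well. In meninges 3 of 7 border-associated macrophage markers rose (Lyve1, F13a1 and Cbr2), with a sum of 761–912 CPM, against 549–737 CPM in control meninges. The T and NK cell markers summed to 24.5–29.9 CPM at 24 h, against 35.8–44.3 CPM in control meninges, and 0 of 11 tested passed (lowest adjusted p = 0.0694). The dendritic cell markers summed to 52.9–56.9 CPM, against 61.3–62.3 CPM, with Cd209a as the 1 of 6 that fell, and the leukocyte markers to 407–515 CPM, against 367–618 CPM. In brain the T and NK cell markers summed to 3.32–9.32 CPM at 24 h, against 13.4–16.5 CPM in control brain, and 0 of the 2 tested passed. Cd3d, Cd3g, Cd8a, Klrd1 and Ncr1 were at 0 in the 24 h libraries. Of these, Ncr1 was at 0 in the control libraries too, and Cd8a and Ncr1 were at 0 in the 0.5 h libraries. The dendritic cell markers summed to 32.4–36.3 CPM at 24 h, above the 25.3–30.7 CPM of control brain. The leukocyte markers (106–118 CPM, against 104–119 CPM) and the microglia markers (160–185 CPM, against 162–194 CPM) overlapped the controls. The B cell markers summed to 13.5–18.2 CPM, against 19.8–24.3 CPM in control brain (Ighm fell, 1 of 2 tested), the class II genes to 54.7–60.5 CPM, against 66.7–134 CPM (Ctss fell, 1 of 9), and the peptide loading partners to 1758–1816 CPM, against 1953–2080 CPM (Hspa5 fell, 1 of 12). The part of these changes in the class I values was not tested.

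Across the 27 libraries, with each gene centred on its tissue mean on a log2 scale, the 10 genes varied together. Pearson's r over their 45 pairs ran from 0.66 (H2-D1 with Psmb10) to 0.99 (H2-K1 with H2-D1), with a median of 0.85. Within tissues (9 libraries each) the median r was 0.91 in skull, 0.88 in meninges and 0.85 in brain. Of 13570 other genes at a mean of at least 1 CPM in every tissue, the closest to the mean of the 10 was H2-Q4 (r = 0.95). Cxcl10 (0.91), H2-T22 (0.89), H2-T23 (0.89), H2-M3 (0.87), Bst2 (0.87), Tspo (0.85) and Tcirg1 (0.85) came next. Without the brain libraries, 18 in number, r was highest among these for H2-T23 (0.98) and H2-T22 (0.96), and 0.76 for Tspo. The points share libraries, treatment and depth, so r describes these samples and carries no test.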

How the data were processed

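The authors deposited 1 table of counts per gene symbol, whole numbers, for 27 poly(A) RNA libraries. Per the submitters' processing notes, reads were processed with HISAT2 2.1.0 and mm10. How reads were assigned to genes (tool, annotation, strand) is not given in the sources used here. All 27 columns were matched to labels, and 0 value columns were left unused. Groups come from the labelled tissue, treatment and time.

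Within a tissue, 9 libraries were fitted with edgeR 4.0.16 (quasi-likelihood F test, robust, TMM scaling, filterByExpr with minimum count 10 and minimum total 15) in R 4.3.3. Differences of effects and untreated tissues were tested in a fit of 27 libraries. Benjamini-Hochberg adjustment ran over all genes tested in a comparison, with calls at 0.05, and "rose" and "fell" refer to that. The SE of a log2 fold change is its size over the square root of F. CPM values use TMM-scaled totals of 27 libraries. Lengths, coordinates and exon overlaps are from GENCODE M21 (GRCm38, the same assembly as mm10), and promoters from RefSeq GRCm38.p6. The fit was tested on simulated data. Counts rest on reads without molecular identifiers.

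Members, gene lists (264 entries, 258 in the table) and tests were chosen with earlier results of these data known. Named are all 10 members, up to 3 genes with the smallest p per list of the class I pathway, interferon and class II, marker genes behind small counts, genes read beside brain control 1 and the 8 genes most alike in pattern (log2 of CPM plus 0.5). H2-T23, Psmb5 and Irf1 or Cd74 in other tissues were added after their values were seen. Replicate numbers did not pair libraries: deviations of same-numbered libraries correlated at -0.31 to 0.15 within a tissue (median -0.01, 1 of 27 pairs above 0.1) and at -0.05 to 0.09 between tissues. Alternatives were RLE scaling, TMM without haemoglobin and mitochondrial genes, no filter, DESeq2 1.42.0, only the groups compared, a replicate block, and leaving out each library. Leaving brain control 1 out of brain 24 h against 0.5 h was added after seeing the data.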

Additional observations from a re-analysis of the deposited data

How the results depend on the processing

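Of 253 counts of genes passing and settings, 239 stayed within 1.5 times the reported count, and no fold change of a called gene turned its sign. Many of these belong to comparisons where 0 or all 10 passed, so the share says little about the calls in skull. There the count moved further without 2 of 6 libraries and without the filter at 0.5 h, and without 3 of 6 libraries at 24 h. Without a filter on low counts, 3 of the 10 genes fell in skull at 0.5 h, in place of 6, where 669 of 30860 genes fell. In brain 2 (0.5 h) and 5 (24 h) then fell, in place of 0, where 91 and 755 of 33775 genes fell. DESeq2 called 3 in brain at 24 h, beside 877 of 18172 tested genes. With replicate numbers as a block, which the libraries share only as a number, 1 was called in brain at 24 h, beside 340 of 18172 tested genes. Leaving out each library in turn gave 0 to 7 in skull at 0.5 h, 3 to 6 in skull at 24 h, 0 to 2 in meninges at 24 h, 0 to 1 in brain at 0.5 h and 0 to 3 in brain at 24 h. The cause was not tested, but a library left out also leaves fewer samples. In the comparisons of untreated tissues and the differences of effects no count moved beyond that range. Of single genes, 36 values lost a call and 23 gained one. With 3 libraries a group and Psmb8 and Psmb9 near 1 CPM in brain, changes of low genes there were weakly resolved.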
